A study of Mus musculus with 4 samples.

Results

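*Fzd5*, a receptor gene for secreted Wnt ligands, was 1.63-fold higher dorsally than ventrally in the mouse tracheoesophageal anlage at E9.75. It was the single member of the 10 Frizzled genes that passed the test between the parts. The call was lost without either dorsal array, where the log2 difference was 0.74 or 0.67 with a wider standard error. It was also lost with the mean of the 2 *Fzd5* probe sets, of which the dimmer one differed by -0.14 on the log2 scale. Its closest relative *Fzd8* had higher values dorsally as well, and 1 of its 2 probe sets passed when probe sets were tested one by one. *Fzd4* and *Fzd7* had higher values ventrally without passing, and they passed after the arrays were quantile-normalized once more. The family described here is the Frizzled genes *Fzd1* to *Fzd10*, found as the probe sets that the platform annotation assigns to 1 of these symbols alone. There were 26 such probe sets of 45101 on the array, and the 10 genes stand among 18194 named genes.

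Frizzled proteins are receptors that cross the cell membrane several times and bind Wnt ligands through a cysteine-rich domain outside the cell. Together with the co-receptors LRP5 and LRP6 they recruit Dishevelled and stabilise beta-catenin, and with other partners they act in planar cell polarity. By sequence the family falls into *Fzd5* with *Fzd8*, *Fzd4* with *Fzd9* and *Fzd10*, *Fzd1* with *Fzd2* and *Fzd7*, and *Fzd3* with *Fzd6*. Wnt signalling through beta-catenin is needed in the ventral foregut for the respiratory fate, which is marked by *Nkx2-1*.

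The tissue was the single foregut tube of BALB/c embryos, taken from behind the pharynx to the end of the lung bud swelling and divided manually into its dorsal and ventral parts. No genotype or treatment is given beyond the strain. There were 2 Affymetrix arrays per part, called biological replicates in the labels, each made from 100 ng of total RNA. The sources do not state whether the replicates shared a litter or a pool, so the p-values measure the spread between these 4 arrays, which may be technical. Each sample held epithelium and mesenchyme together, and fewer cells of a type cannot be told apart from less RNA per cell.

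The deposited values are those of RMA, one per probe set, read here as log2. Ventral replicate 2 stood apart from the other arrays, with an upper quartile of 7.75 where the other 3 had 8.00 to 8.02. The median gap between replicates over the tested genes was 0.26 for the ventral and 0.08 for the dorsal arrays. Poly-A control RNAs read higher on replicate 2 than on replicate 1 of each part, by 2.19 dorsally and 1.83 ventrally. Differences between arrays of the same number are therefore given beside the results. With 2 arrays against 2, an exact permutation test cannot give a two-sided p below 0.333, so the test was limma's, which shares the spread over all genes.

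All 10 Frizzled genes lay above the 40th percentile on all 4 arrays with the probe set of highest mean signal, and all entered the test with 13139 genes. At an adjusted p under 0.05, 1 of the 10 was called, which is 10% beside 8.88% of all tested genes. The call was dorsal, a direction in which 4.79% of all tested genes were called. None was called as higher ventrally, beside 4.09% of all tested genes, while 3 of the 10 had an unadjusted p under 0.05 beside 19.0% of all. The median difference of the 10 receptors was 0.01 and that of all tested genes was 0.07, both dorsal minus ventral on the log2 scale. The median size of the difference, without its sign, was 0.23 for the receptors and 0.18 for all genes. As a family, then, the Frizzled genes were called about as often as the genes of the whole array.

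**Figure D1:**
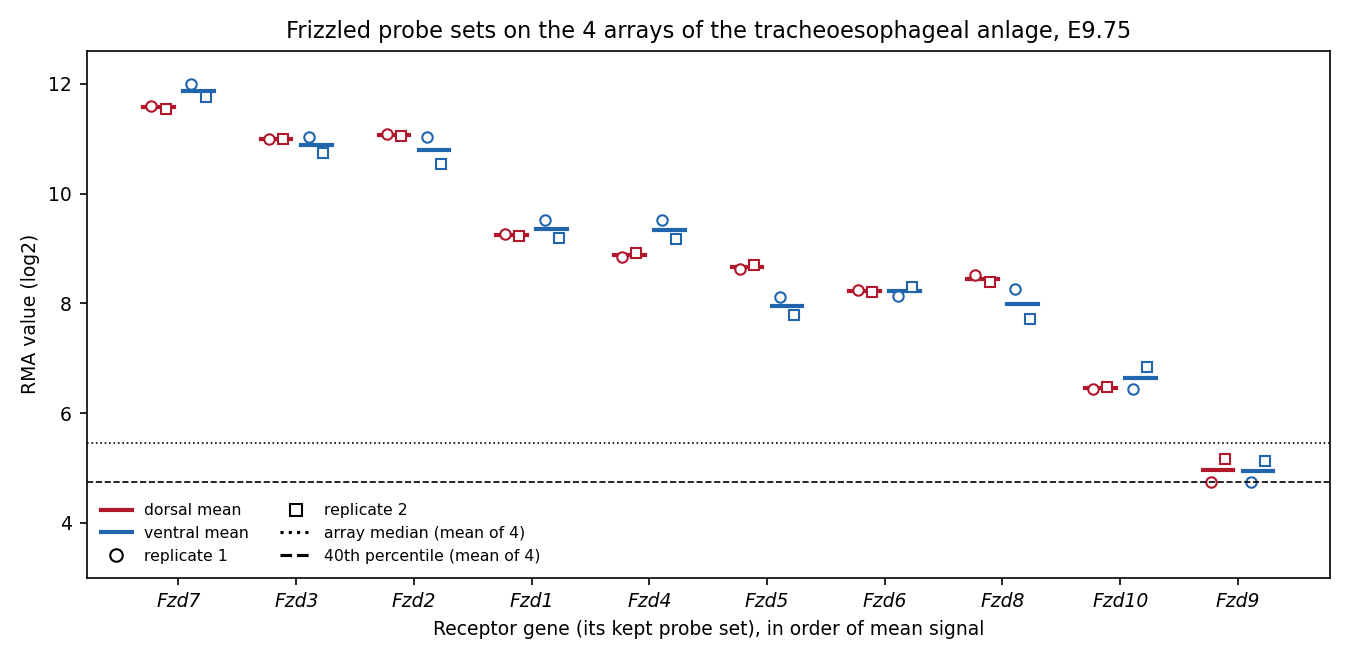
RMA values (log2, vertical axis) of the kept probe set of each Frizzled gene, in order of mean signal (horizontal axis), with 1 symbol per array (circles for replicate 1, squares for replicate 2) and a bar for the mean of each part. The dotted line is the array median and the dashed line the 40th percentile, each averaged over the 4 arrays. For *Fzd5* and *Fzd8* both dorsal symbols lie above both ventral ones, and for *Fzd4* and *Fzd7* below them.

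*Fzd5* and *Fzd8* encode closely related receptors. *Fzd5* was measured by probe set 1455604_at at 8.62 and 8.69 on the dorsal arrays and at 8.11 and 7.79 on the ventral arrays. The parts did not overlap, and the gap between them was larger than the gap of 0.32 between the ventral replicates. With 2 arrays per part, the log2 difference was 0.70 (standard error 0.17, 95% interval 0.34 to 1.07, limma's adjusted p = 0.00965). It was 0.51 between the arrays of replicate 1 and 0.90 between those of replicate 2. Of all tested genes, 6.22% had a difference of at least this size in either direction.

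The call of *Fzd5* rested on 1 of its 2 probe sets, and it was lost without either dorsal array. Without dorsal replicate 1 the difference was 0.74 and without dorsal replicate 2 it was 0.67. The standard error then rose from 0.17 to 0.30, with 1 array fewer and the spread taken from the ventral arrays alone. The difference was 0.86 without ventral replicate 1 and 0.55 without ventral replicate 2. The other *Fzd5* probe set, 1422937_at, had a low signal between the 43.8th and 46.9th percentiles of the arrays. It read 4.98 and 5.01 dorsally and 5.01 and 5.26 ventrally, a difference of -0.14, so it did not show the higher dorsal value. With the mean of both probe sets the difference was 0.28 and was not called (adjusted p = 0.303 from limma).

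*Fzd8* read 8.51 and 8.39 dorsally and 8.25 and 7.71 ventrally with probe set 1423348_at. The dorsal values lay above the ventral ones, but the gap of 0.54 between the ventral arrays was the widest among the 10 receptors. The log2 difference of 0.47 did not pass (standard error 0.19, 95% interval 0.08 to 0.86, adjusted p = 0.156 from limma). The second probe set, 1445815_at, read 6.49 and 6.42 dorsally and 5.88 and 5.27 ventrally. Its difference was 0.88 (standard error 0.21, adjusted p = 0.0318 from limma in a fit of the 23336 probe sets above the filter, of which 5.84% were called). Both *Fzd8* probe sets thus read higher dorsally, by 0.25 and 0.62 in replicate 1 and by 0.68 and 1.15 in replicate 2.

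The difference of the kept *Fzd8* probe set was 0.74 without ventral replicate 1 and fell to 0.20 without ventral replicate 2. The second probe set was not called after quantile normalization once more (0.87), nor without dorsal replicate 1 (0.85) or dorsal replicate 2 (0.92), with adjusted p from 5.35e-05 to 0.219 over its alternatives. It was 1.19 without ventral replicate 1 and 0.58 without ventral replicate 2. A call without a ventral array would rest on the spread of the dorsal arrays alone, so none is given here.

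**Figure D2:**
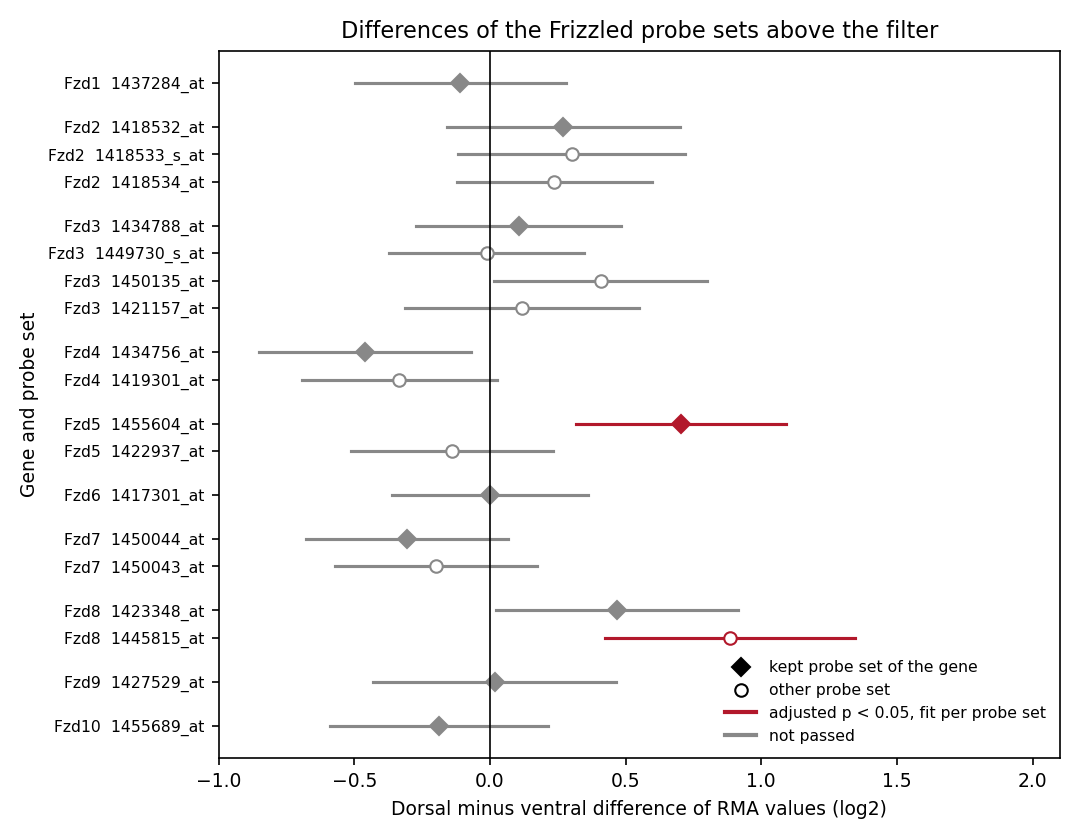
Difference between the parts (dorsal minus ventral, log2 RMA values, horizontal axis) for the 19 Frizzled probe sets above the filter, grouped by gene (vertical axis), with lines for the 95% interval of a limma fit of all probe sets. Diamonds mark the kept probe set of a gene and circles the others. In red are 1 probe set of *Fzd5* at 0.70 and 1 of *Fzd8* at 0.88, which passed, and the second *Fzd5* probe set lies at -0.14.

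*Fzd4* encodes a receptor for Wnts and for Norrin, and it is best known from blood vessels of the retina. Its probe set 1434756_at read 8.85 and 8.91 dorsally and 9.51 and 9.17 ventrally. Both ventral arrays lay above both dorsal ones. The log2 difference of -0.46 did not pass the test (standard error 0.18, 95% interval -0.83 to -0.10, adjusted p = 0.128 from limma), and it was -0.66 and -0.26 within the arrays numbered 1 and 2. A second probe set of similar signal, 1419301_at, read 8.86 and 8.98 dorsally and 9.22 and 9.28 ventrally, a difference of -0.33. The third, 1449416_at, lay at or below the 10.1th percentile of every array and carried no comparison.

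The *Fzd4* difference was called after quantile normalization once more (-0.58, adjusted p = 0.0235 from limma). That step moved the median difference of all tested genes from 0.07 to -0.016. Without ventral replicate 2 the *Fzd4* difference was -0.63. Without ventral replicate 1, probe set 1419301_at had the higher mean and was fitted in place of 1434756_at, with a difference of -0.36. With the mean of all 3 probe sets the *Fzd4* difference was -0.26. The direction was the same in each of the 14 alternatives.

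*Fzd9* and *Fzd10*, the relatives of *Fzd4*, were the receptors of lowest signal. *Fzd9* had a single probe set, which read 4.75 and 5.17 dorsally and 4.75 and 5.13 ventrally. These values lay between the 40.4th and 46.4th percentiles of the arrays, and the parts overlapped. The difference was 0.02 (95% interval -0.38 to 0.41, adjusted p = 0.973 from limma). *Fzd10* read 6.44 and 6.47 dorsally and 6.45 and 6.84 ventrally, a difference of -0.19 (95% interval -0.56 to 0.18, adjusted p = 0.616 from limma). The 1 ventral array with the higher *Fzd10* value was replicate 2. Without that array the difference was 0.01, and without ventral replicate 1 the difference was -0.39.

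*Fzd7*, *Fzd2* and *Fzd1* form the group of receptors that is most widely used in beta-catenin signalling. *Fzd7* had the highest signal of the family and read 11.59 and 11.55 dorsally and 11.99 and 11.75 ventrally. The ventral arrays lay above the dorsal ones. The log2 difference was -0.31 (standard error 0.17, 95% interval -0.66 to 0.05, adjusted p = 0.357 from limma). It was -0.41 in replicate 1 and -0.20 in replicate 2. Its second probe set, near the array median, differed by -0.20. *Fzd7* was called after quantile normalization once more (-0.41, adjusted p = 0.0482 from limma), the step that moved the median of all tested genes ventrally. The *Fzd7* difference was -0.43 without ventral replicate 2 and -0.18 without ventral replicate 1.

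*Fzd2* read 11.08 and 11.04 dorsally and 11.04 and 10.54 ventrally. Ventral replicate 1 was level with the dorsal arrays, and ventral replicate 2 alone was lower. The difference was 0.27 (95% interval -0.11 to 0.65, adjusted p = 0.466 from limma), and the other 2 probe sets gave 0.30 and 0.24. In replicate 1 it was 0.04 and in replicate 2 it was 0.50. It was 0.02 without ventral replicate 2 and 0.52 without ventral replicate 1. *Fzd1* read 9.26 and 9.23 dorsally and 9.52 and 9.18 ventrally, so the dorsal values lay between the ventral ones. Its difference was -0.11 (95% interval -0.47 to 0.26, adjusted p = 0.784 from limma), and its second probe set lay at or below the 24.3th percentile of every array.

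*Fzd3* and *Fzd6* are the members best known for planar cell polarity, *Fzd3* in growing axons and *Fzd6* in the hair pattern of the skin. *Fzd3* had the most probe sets, 6 in all. The kept one, 1434788_at, read 11.00 and 10.99 dorsally and 11.03 and 10.74 ventrally, a difference of 0.11 (95% interval -0.25 to 0.46, adjusted p = 0.789 from limma). The other 3 above the filter differed by -0.01, 0.12 and 0.41, and for 1450135_at, the last of these, the parts did not overlap although it was not called (adjusted p = 0.286 from limma). The remaining 2 lay below the 40th percentile of every array. *Fzd6* read 8.24 and 8.20 dorsally and 8.14 and 8.29 ventrally, with a difference of 0.00054 (95% interval -0.35 to 0.35, adjusted p = 1 from limma). The dorsal values of *Fzd6* fell between the ventral ones.

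The signals of the kept probe sets spanned the range from 4.95 for *Fzd9* to 11.72 for *Fzd7*, as means of the 4 arrays. In order of signal the family ran *Fzd7*, *Fzd3*, *Fzd2*, *Fzd1*, *Fzd4*, *Fzd5*, *Fzd6*, *Fzd8*, *Fzd10* and *Fzd9*. This is an order of probe set signals, since probe sets differ in how well they bind, and it is no order of RNA amounts. The lowest signal of *Fzd3* on any array lay at the 94.3th percentile, and *Fzd7* lay at or above the 96.3th. Other probe sets of the same genes read far lower, as with *Fzd7* at 5.50 to 5.86 on the second probe set. The neighbours *Fzd3* and *Fzd2* (10.94 and 10.92) and *Fzd6* and *Fzd8* (8.22 and 8.22) did not differ beyond the spread of their arrays. In the dorsal part *Fzd5* and *Fzd8* stood above *Fzd6*, and in the ventral part both stood below it (means of 7.95 and 7.98 against 8.22), a change of order that follows from the differences given above.

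For 5 of the 10 receptors the arrays of the parts did not overlap, beside 50.9% of all tested genes. The receptors were *Fzd2*, *Fzd4*, *Fzd5*, *Fzd7* and *Fzd8*. For *Fzd2* the parts barely separated, with dorsal replicate 2 at 11.0385 and ventral replicate 1 at 11.0371. Replicates were closer dorsally, where the gap between arrays was 0.0045 to 0.12 for all receptors but *Fzd9* (0.42), than ventrally, where it was 0.15 to 0.54. The ventral gap was the larger one for 9 of the 10 receptors and for 83.2% of all tested genes. Ventral replicate 1 read higher than ventral replicate 2 for 7 of the 10 and for 75.8% of all tested genes. The direction of the difference depended on the ventral array used for *Fzd1*, *Fzd3*, *Fzd6*, *Fzd9* and *Fzd10*, and it was the same without either ventral array for *Fzd2*, *Fzd4*, *Fzd5*, *Fzd7* and *Fzd8*.

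**Figure D3:**
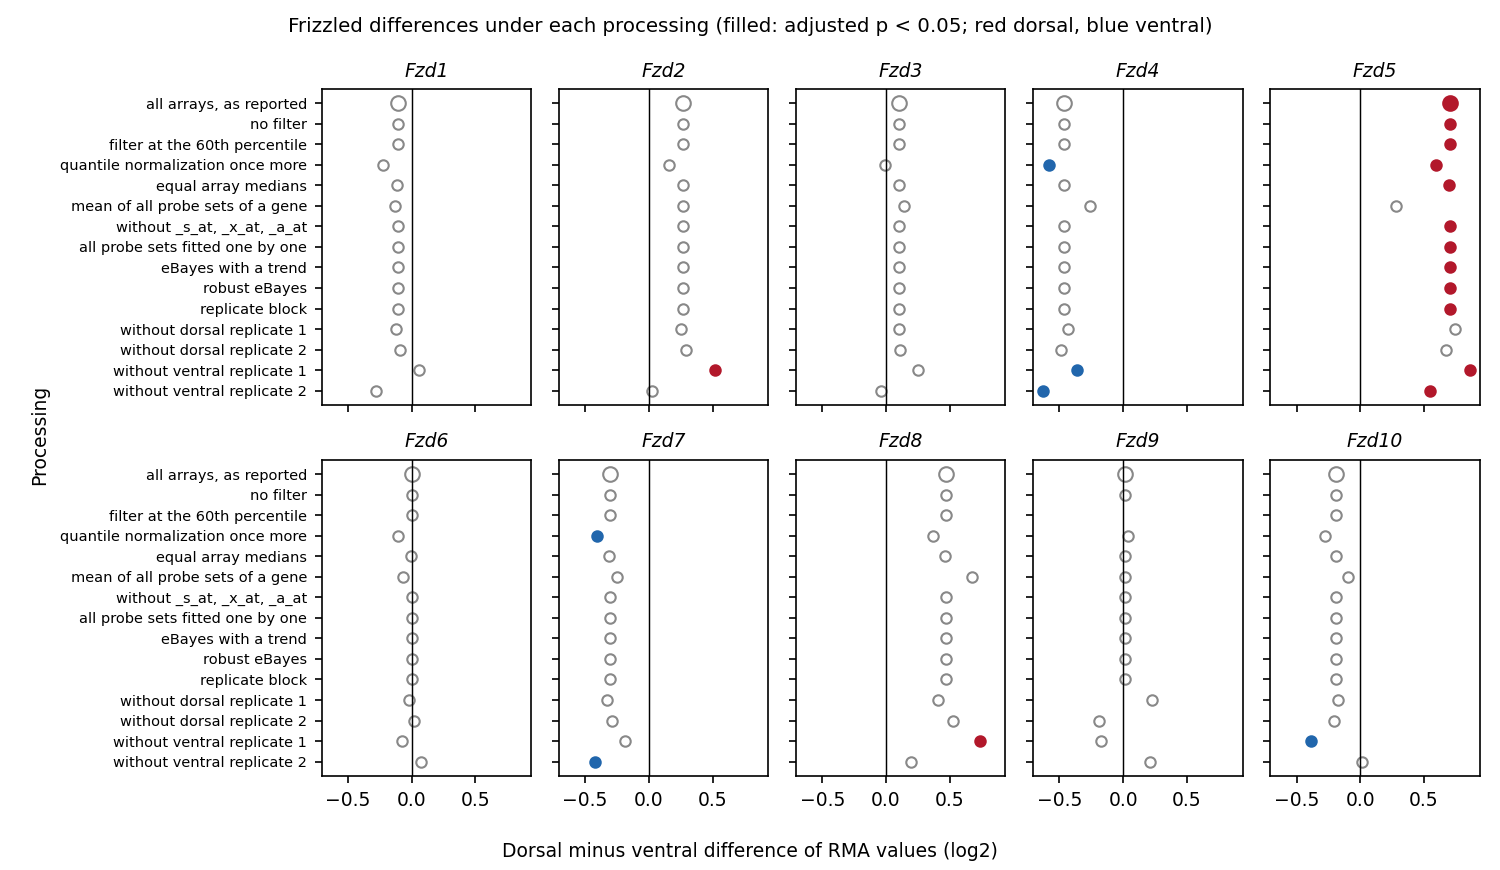
Difference between the parts (dorsal minus ventral, log2 RMA values, horizontal axis) of each Frizzled gene as reported and under each other processing (vertical axis), 1 panel per gene. Filled symbols passed limma's test (red higher dorsally, blue higher ventrally) and open ones did not. With 1 array left out, filling rests on the spread of the part that keeps both arrays. Without ventral replicate 1 the *Fzd4* symbol, at -0.36, is that of probe set 1419301_at. *Fzd5* is filled in most settings, between 0.55 and 0.86, and *Fzd4* is filled in 3, between -0.63 and -0.36.

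The rest of the pathway was set beside the receptors with lists of Wnt genes. Of 85 tested pathway genes other than Frizzled genes, 11 were higher dorsally and 10 ventrally, which is 24.7% beside 8.88% of all tested genes. Among the 11 was *Daam2*, which entered the test through its dorsal arrays alone. Of the 21 called genes, 10 were called in each of the 14 alternatives and 9 were tested but not called in at least 1, namely *Wnt5b*, *Wnt7b*, *Wnt11*, *Ror1*, *Ror2*, *Rspo1*, *Lgr5*, *Sfrp5* and *Ankrd6*. A further 2, *Dkk1* and *Daam2*, were not tested in 2 and 4 of the alternatives and were called in the others. The lists were chosen with earlier results of these data known, so the share is a description. Over all tested genes 4.79% were called dorsally and 4.09% ventrally, and the counts of each list below stand beside these shares.

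Among 12 tested ligand genes, 5 passed limma's test. The log2 difference was 2.47 for *Wnt4* and 0.68 for *Wnt5b*, both higher dorsally, and -2.73 for *Wnt2*, -0.98 for *Wnt11* and -0.98 for *Wnt7b*, all higher ventrally. The other 7 did not pass. *Wnt5b* read 7.39 and 7.42 dorsally and 6.92 and 6.54 ventrally, and its profile over the 4 arrays was among the 3 nearest to that of *Fzd5*. With each profile centred on its mean, the Euclidean distances from *Fzd5* were 0.04 for *Fam174b*, 0.05 for *Smox* and 0.06 for *Wnt5b*, and these rest on 4 arrays. *Ndp*, which encodes Norrin, lay below the 40th percentile of every array, at 3.37 to 3.71.

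Of 8 tested genes for co-receptors and other Wnt receptors, *Ror1* (1.05) and *Ror2* (0.72), which encode tyrosine kinase receptors for Wnt5a, were higher dorsally and none ventrally. The shares of all tested genes were 4.79% dorsally and 4.09% ventrally. The co-receptor gene *Lrp6* differed by 0.14 (adjusted p = 0.698 from limma), and *Lrp5* lay below the filter at 3.71 to 3.96. *Tspan12*, which encodes a partner of FZD4 in Norrin signalling, differed by -0.29 (adjusted p = 0.377 from limma). Thus neither the co-receptor *Lrp6* nor the *Fzd4* partner was called.

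The ubiquitin ligases ZNRF3 and RNF43 remove Frizzled proteins from the cell surface, and R-spondins block them through LGR receptors. Of 7 tested genes of this list, *Rspo3* (1.80) and *Rspo1* (0.55) were higher dorsally and *Rspo2* (-4.64) and *Lgr5* (-0.62) ventrally. *Znrf3* differed by -0.22 (adjusted p = 0.541 from limma) and *Rnf43* by -0.46 (adjusted p = 0.198 from limma). The differences of *Rspo2* and *Rspo3* were larger in size than that of any Frizzled gene, and that of *Rspo1* was not. *Rspo4* lay below the filter at 4.26 to 4.38.

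Most Wnt antagonists are secreted and bind Wnts or their receptors, while the Shisa proteins hold Frizzled proteins back inside the cell. Of 13 tested antagonist genes, *Shisa3* (2.48) and *Sfrp2* (1.01), a secreted protein with a Frizzled-like domain, were higher dorsally. *Shisa2* (-1.57), *Dkk1* (-1.23), which encodes an inhibitor of LRP5 and LRP6, and *Sfrp5* (-0.72) were higher ventrally, and the other 8 did not pass.

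None of 18 tested genes for intracellular transducers passed in either direction, beside 8.88% of all tested genes. Their differences ran from -0.32 for *Lef1* to 0.31 for *Tcf7l1*. The Dishevelled genes *Dvl1*, *Dvl2* and *Dvl3* differed by 0.21, 0.15 and 0.02. Of 18 tested planar polarity genes, *Prickle2* (2.32), *Daam2* (1.42) and *Ankrd6* (0.90) were higher dorsally and none ventrally. Among all tested genes 4.79% were called dorsally and 4.09% ventrally. *Daam2* was under the 40th percentile on both ventral arrays and entered the test through its dorsal arrays alone, so it had to differ to be counted, and 2 dorsal calls are left without it. *Vangl2*, which encodes a core polarity protein that works with FZD3 and FZD6, differed by 0.01 (adjusted p = 0.986 from limma). Of 13 tested Wnt target genes, *Bmp4* (-2.53), *Sp5* (-1.22) and *Lgr5* (-0.62) were higher ventrally and none dorsally, and *Axin2* differed by 0.02 (adjusted p = 0.960 from limma). *Smo*, the relative of Frizzled genes that acts in Hedgehog signalling, differed by 0.15 (adjusted p = 0.692 from limma).

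**Figure D4:**
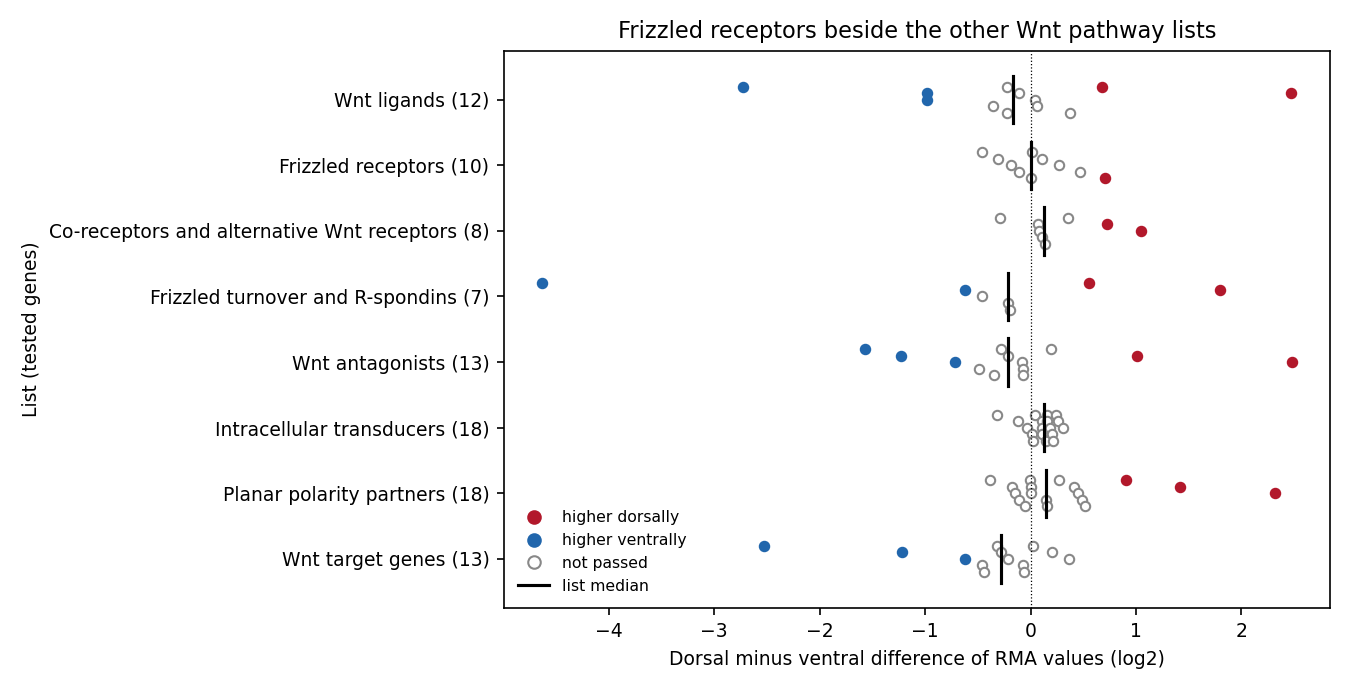
Difference between the parts (dorsal minus ventral, log2 RMA values, horizontal axis) of each tested gene in the lists of the Wnt pathway (vertical axis, number of tested genes in parentheses), drawn as 1 point for every gene in the colour of its call by limma, with black bars for list medians. The Frizzled genes span -0.46 to 0.70, the intracellular transducers -0.32 to 0.31 and the list with R-spondins -4.64 to 1.80.

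Markers of cell types also differed between the parts, and their part in the Frizzled values was not tested. Their counts stand beside 4.79% of all tested genes called dorsally and 4.09% ventrally. Foregut markers were present, among them *Foxf1* of the mesenchyme (9.10 to 9.59) and *Shh* of the epithelium, which was higher ventrally (12.93 and 13.22 against 10.45 and 10.38). *Nkx2-1* read 5.03 to 5.25, below the medians of the arrays (5.42 to 5.47), and was not called (-0.10, adjusted p = 0.785 from limma). Of 13 epithelial genes 5 were higher ventrally and *Sox2* was higher dorsally, and the summed linear signal of the list was 13.62 and 13.69 dorsally and 14.37 and 14.68 ventrally as log2 values. Of 11 genes of foregut mesenchyme 4 were higher ventrally and 2 dorsally, with summed signals of 14.50 and 14.55 dorsally and 14.24 and 14.57 ventrally.

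Beside *Fzd5* and *Fzd8*, 6 of 7 tested neural crest genes (summed signal 11.38 to 11.41 dorsally and 10.13 to 10.16 ventrally) were higher dorsally and the seventh, *Ednrb* (-1.37), ventrally, while 4 of 5 mesothelial genes (12.35 to 12.36 and 11.23 to 11.48) were higher dorsally. So were 2 of 5 somite genes (9.29 to 9.52 and 8.60 to 8.72), 2 of 4 red blood cell genes (15.74 to 15.74 and 15.14 to 15.43) and 1 of 4 neural tube genes (8.42 to 8.47 and 7.99 to 8.02). Beside *Fzd4* and *Fzd7*, 12 of 13 heart muscle genes (11.32 to 11.35 dorsally and 14.15 to 14.53 ventrally) and 3 of 4 hepatic genes (9.32 to 9.34 and 11.37 to 11.56) were higher ventrally. In these lists *Myh6*, *Ryr2*, *Foxd3* and *Wt1* passed the filter only through the part where they were higher. Of all tested genes, 4.79% were called dorsally and 4.09% ventrally. Of 8 endothelial genes none was called, with differences from -0.42 for *Kdr* to 0.42 for *Emcn*, and the summed signal of that list was 11.35 to 11.37 dorsally and 11.30 to 11.60 ventrally. The part of endothelial content in the *Fzd4* values was not tested.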

How the data were processed

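Total RNA from the dorsal and ventral parts of the E9.75 tracheoesophageal anlage was hybridised to 4 Affymetrix arrays. The authors deposited RMA values, which the submitters' processing notes name without a version and which are read here as log2 from their range of 2.36 to 15.02. Detection calls were not used, and the precision is limited by the small number of arrays. Genes were named from the platform annotation of GEO, whose identifiers were looked up in the RefSeq table of GRCm38.p6, where 34754 of 34958 probe sets with 1 symbol were found and 0 symbols changed. Another 932 probe sets with several symbols and 9211 unnamed ones were not used. No coordinates are given because the values name no build, and no protein sequences were used here.

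For each gene the probe set of highest mean was kept, and a gene was tested if it lay above the 40th percentile on 2 or more arrays, which gave 13139 genes. The difference, dorsal minus ventral, was fitted with limma (version 3.58.1, lmFit with eBayes, R version 4.3.3) and no term for the replicate number. Tests were two-sided, and p-values were adjusted over all tested genes by the method of Benjamini and Hochberg, with a threshold of 0.05. Standard errors and intervals are the moderated ones. The script was tested on simulated data. Named genes are the Frizzled genes, up to 4 called genes with the largest differences per pathway list (all where 5 or fewer passed), the 3 profiles nearest to the called receptor, and some partners of the receptors and marker genes named after their values were seen. The members and lists were chosen with earlier results of these data known. Alternatives were other filters, normalizations, probe set choices and variance models, a block for the replicate number, other thresholds, and leaving out each array. With an array left out, the probe set of highest mean was chosen again from the arrays left. The fits of the second *Fzd8* and *Fzd4* probe sets under other settings were chosen after seeing the data.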

Additional observations from a re-analysis of the deposited data

How the results depend on the processing

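The count of Frizzled genes higher dorsally was 1 as reported, 0 when the probe sets of a gene were averaged and 2 with all probe sets fitted one by one, and from 0 to 3 when 1 array was left out. The count higher ventrally was 0 as reported, 2 after quantile normalization once more and from 0 to 2 when 1 array was left out. All tested genes gave 629 dorsal and 538 ventral calls as reported and 479 and 635 after quantile normalization once more. They gave 424 dorsal calls at an adjusted p under 0.01, and 247 to 4544 dorsal and 276 to 1593 ventral calls when 1 array was left out. The other Wnt pathway genes gave 11 dorsal and 10 ventral calls as reported, 6 ventral calls when probe sets were averaged, and 6 to 24 dorsal and 7 to 17 ventral calls when 1 array was left out. With 1 array left out, the spread comes from the part that keeps both arrays, and the lone array is assumed to vary like those.

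Differences that changed sign were those of receptors that were not called. *Fzd3* was -0.0061 and *Fzd6* -0.11 after quantile normalization once more, and *Fzd6* was -0.0051 with equal array medians and -0.064 when its probe sets were averaged. With 1 array left out, *Fzd1* ran from -0.28 to 0.060, *Fzd3* from -0.039 to 0.25, *Fzd6* from -0.074 to 0.075, *Fzd9* from -0.19 to 0.23 and *Fzd10* from -0.39 to 0.011. *Fzd9* was not tested with a filter at the 60th percentile. For the 21 pathway genes named, over 14 alternatives each, 261 differences kept their direction and call, 25 lost the call and 0 changed sign, while in 8 cases the gene was not tested. These were 1 case each for *Wnt5b* and *Ror1*, 2 for *Dkk1* and 4 for *Daam2*.

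With the replicate number as a block, which the labels do not describe as a pairing, *Fzd5* stayed called at 0.70 (adjusted p = 0.00125 from limma) and no other receptor was called, while calls over all genes went from 1167 to 1468. Same-numbered arrays deviated together with a correlation of 0.14 across genes.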
